A study of Mus musculus with 12 samples.

Results

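Kinesins and cytoplasmic dynein are the motor proteins that walk along microtubules. Most kinesins carry cargo towards the growing ends of microtubules, and dynein, with its activator complex dynactin, carries cargo the other way. Neurons depend on both to move vesicles, mitochondria, mRNA and receptors along axons and dendrites, while other kinesins build spindles or cilia. Genes were taken as members when the symbol in the first column of the deposited count table began with Kif or Kifc and a digit, Klc and a digit, Dync1, Dync2, Dynll, Dynlr, Dynlt, or Dctn and a digit. This gave 60 of 14909 genes: 34 kinesins, 4 kinesin light chains, 15 dynein chains, 6 dynactin subunits and Kif1bp, which encodes a protein that binds kinesins and is no motor itself. All 60 had enough counts to be tested.

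The libraries came from the frontal cortex of C57BL/6 mice, 5 with the Upf3b knockout (KO 1 to 4 and KO 6) and 7 wild type (WT 1 to 7), with a mouse of its own for each library by the sample titles. UPF3B is a factor of NMD, nonsense-mediated mRNA decay, which degrades transcripts with premature stop codons. The comparison asks which genes differ in level when Upf3b is absent. The sources used here give no sex, age or substrain and do not say how the allele was made. Upf3b itself averaged 2.76 ± 0.877 CPM (the count of a gene relative to its TMM-scaled library total, in the usual CPM unit) in KO and 38.4 ± 2.48 CPM in WT (SD, n = 5 and 7; log2 fold change -3.78, edgeR adjusted p = 7.21e-11), and every KO library lay below every WT library. Library totals ran from 4990643 to 6617759 counts in KO and from 4684039 to 5425774 in WT, so 4 of the 5 KO libraries were deeper than any WT library. KO 1 was the only KO library with a total inside the WT range. KO 2 and WT 4 differed most from the other libraries of their groups over all genes: the chi-square of counts per degree of freedom was 4.25 to 6.53 in pairs with KO 2 and 1.18 to 2.59 in the other KO pairs, and 3.37 to 7.18 in pairs with WT 4 and 1.02 to 3.44 in the other WT pairs. The motor genes took 0.862% to 0.936% of the counts in KO libraries and 0.892% to 0.954% in WT libraries.

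Motor genes moved in both directions, and most changes were small. The threshold was an adjusted p of 0.05 in edgeR's quasi-likelihood test over all 14274 tested genes. KO was higher in 16 of the 60 members and lower in 13, while 15.3% of all tested genes were higher, 14.4% were lower and 29.7% were called in either direction. The median log2 fold change was 0.013 over the members and 0.034 over all tested genes. Of the 34 kinesins 12 rose and 2 fell, while of the 15 dynein chains 3 rose and 6 fell, and of the 6 dynactin subunits 3 fell and none rose. Members whose KO and WT libraries did not overlap numbered 7 with KO higher and 2 with KO lower, or 11.7% and 3.33% of the members. Among all tested genes the shares were 5.84% and 4.8%. In whole tissue, fewer cells of a type and less RNA per cell cannot be told apart.

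The direction followed how densely a gene was counted. The count of Kif5a, the most densely counted member at 0.688 counts per exonic base, lay between 4581 and 5015 in all 12 libraries, a ratio of 1.095, although the library totals differed 1.41-fold. Across the 60 members the log2 fold change had a Spearman rho of -0.81 with counts per exonic base, given as a description since all members share the same libraries. Over the 14110 tested genes with an exonic length, rho was -0.53. In the 20 most densely counted members 11 fell and none rose, with a median log2 fold change of -0.17. The 1623 tested genes in the same density range had a median of -0.17 too, with 63.4% lower and 0.678% higher. Of the 20 members in the middle range 9 rose and 2 fell (median 0.10), and of the 7510 genes there 15.2% were higher and 11.7% lower (median 0.017). The 20 least densely counted members had a median of 0.31, with 7 higher and none lower. The 3803 genes of that range had a median of 0.20, with 19.1% higher and 1.95% lower. Each gene was therefore also tested with offsets, fitted library by library, that take out the trend with density. With these density offsets 11 members were higher and none was lower, against 8.38% and 7.92% of all tested genes (16.3% in either direction). The median was 0.047 over the members and 0.0029 over all tested genes. Both fits called 7 members higher, Kif24, Kif21b, Kif17, Kif1c, Kifc3, Dync2h1 and Dynlt1b. Of the 13 lower members none remained with the offsets, and 2 of them, Dctn1 and Dctn2, had the opposite sign. The count of higher members with the offsets was 6 without KO 2 and 6 without KO 4. Without offsets it was 10 without KO 2, and the count of lower members was 8 without KO 4. With KO 2 and WT 4 both left out, 11 members were higher and 15 lower, and with the offsets 8 were higher and 1, Kif5a, was lower.

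**Figure D1:**
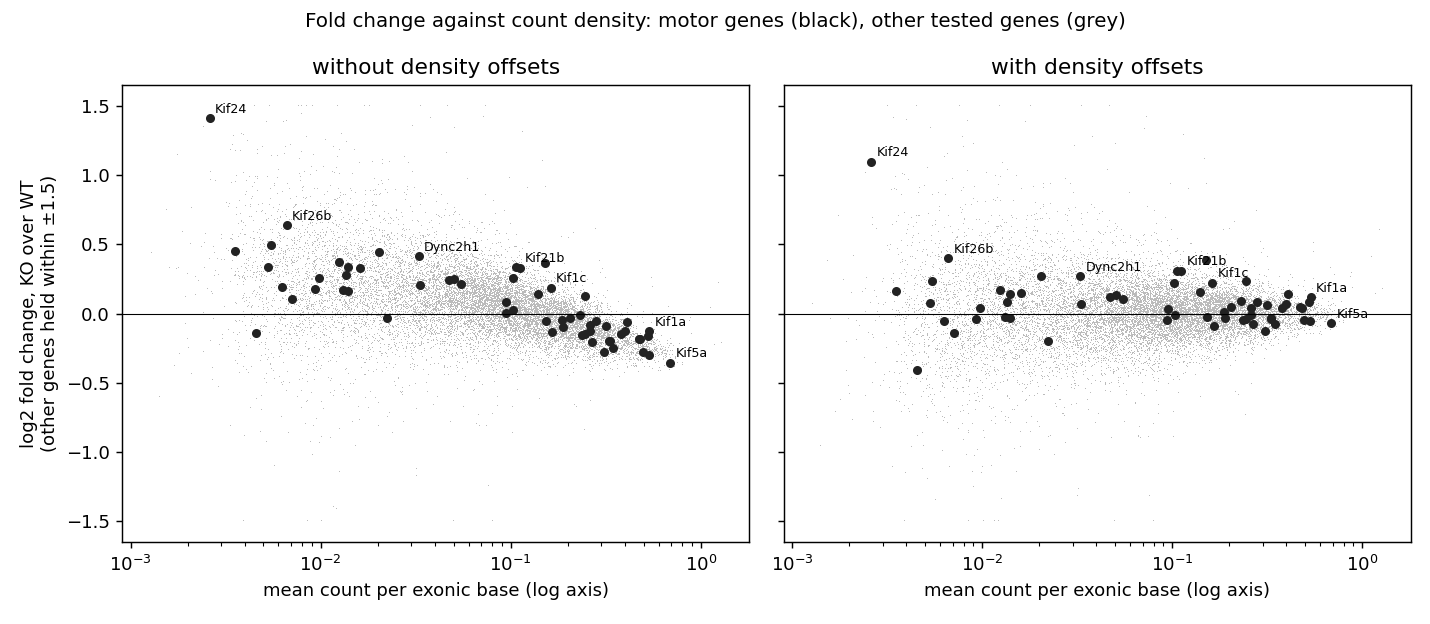
Log2 fold change (KO over WT; other genes held within 1.5 of 0) against the mean count per exonic base on a log axis, for the 60 motor genes in black and other tested genes in grey, without density offsets on the left and with them on the right. On the left the motor genes slope down with density from Kif24 to Kif5a (rho -0.81), and on the right the slope is weaker (rho -0.25). Over all tested genes with an exonic length, rho is -0.53 on the left and -0.0050 on the right.

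KO 1, the KO library of WT-like depth, stood apart from the other KO libraries in the same genes. For the 13 members called lower, KO 1 lay inside the WT range in 11. KO 2 did so in 1, KO 3 and KO 4 in none and KO 6 in 2. For the 16 members called higher, KO 1 lay inside the WT range in 7, and KO 2, KO 3, KO 4 and KO 6 in 2 or 3 each. Depth and genotype largely go together in these libraries. With the log2 library total as a covariate in the fit, 1 member was called, Kif21b, which was higher, and none was lower, against 0.588% and 0.0771% of all tested genes (0.666% in either direction). Under this covariate Kif24 was at a log2 fold change of 1.30, Kif1c at 0.26 and Dync2h1 at 0.26. Dynlt1b was at 0.22, Kif17 at 0.19 and Kifc3 at 0.11, and edgeR adjusted p ran from 0.0610 (Kif1c) to 0.580 (Dynlt1b) in these genes.

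**Figure D2:**
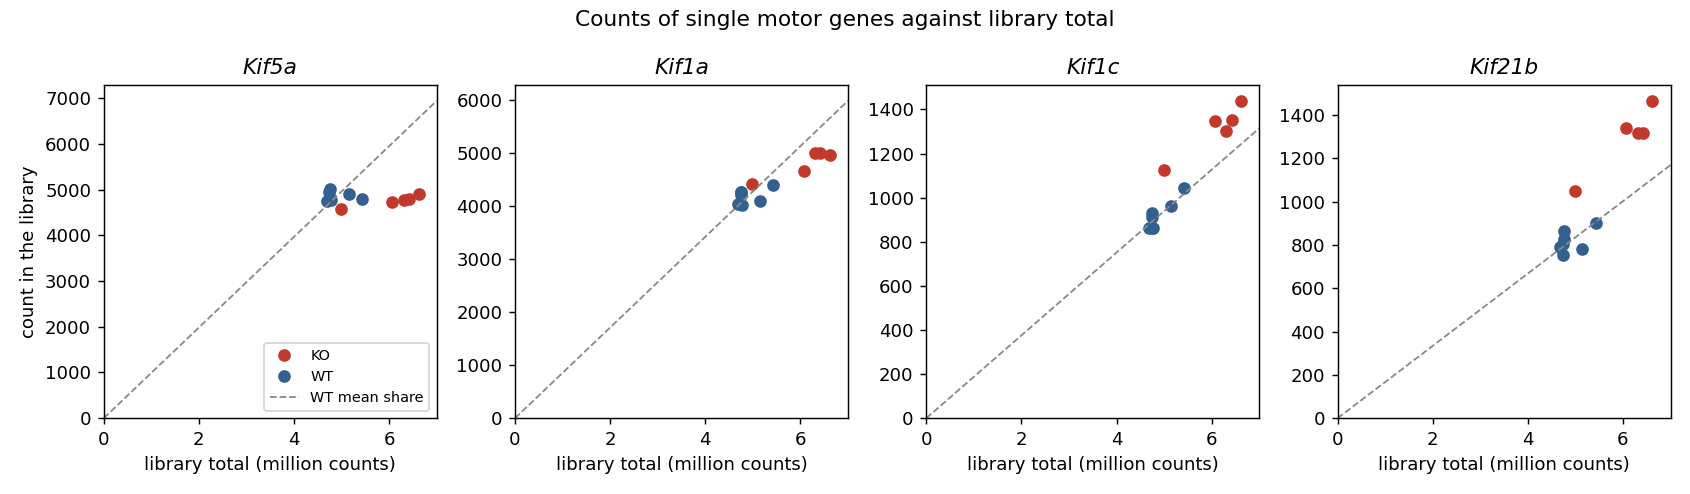
Count of 4 motor genes in each library against the library total, with KO in red and WT in blue. The dashed line is the mean WT share of the library total. All 5 KO libraries lie below the line for Kif5a, and the 4 deeper ones lie below it for Kif1a. For Kif1c and Kif21b all 5 KO libraries lie above it.

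Kif24 had the largest fold change of all members. It encodes a kinesin-13 that depolymerizes microtubules at centrioles and restrains the growth of primary cilia. In mm10 the gene spans 41390745 to 41464887 on chromosome 4, minus strand. It was the member with the lowest level per exonic kilobase, at 0.716 CPM per kb in KO and 0.271 in WT. KO 1, KO 2, KO 3, KO 4 and KO 6 held 16, 26, 24, 37 and 21 counts, and the WT libraries held 4 to 10. As CPM the KO values were 3.27, 4.04, 3.55, 5.69 and 3.46, and the WT values ran from 0.755 through a median of 1.498 to 2.14. Every KO library lay above every WT library. Between KO and WT this made a log2 fold change of 1.41 ± 0.23 (SE; edgeR adjusted p = 8.15e-04), against 1.095 with density offsets (adjusted p = 0.00398). The call held in each fit that left out 1 library, with a highest adjusted p of 0.00349. It was lost in the fit that held the library total (log2 fold change 1.30, adjusted p = 0.209). The other kinesin-13 member, Kif2a, a depolymerase that limits axon branches, held 104.3, 102.8, 102.6, 99.7 and 98.5 CPM in KO 1, KO 2, KO 3, KO 4 and KO 6, and 93.5 to 109.3 CPM in WT with a median of 100.3. The KO libraries lay inside the WT range (log2 fold change 0.0034 ± 0.042, edgeR adjusted p = 0.961).

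Kif21b was the rise with the smallest adjusted p. It encodes a kinesin-4 of dendrites that limits microtubule growth. KO 1, KO 2, KO 3, KO 4 and KO 6 held 214.8, 204.7, 216.7, 202.3 and 220.7 CPM, and the WT libraries ran from 147 through a median of 169.0 to 186 CPM. The groups did not overlap, and KO 1 lay among the other KO libraries. The log2 fold change was 0.33 ± 0.05 (SE; edgeR adjusted p = 5.48e-04), 0.31 with density offsets (adjusted p = 0.00110) and 0.40 in the fit that held the library total (adjusted p = 0.0497). With the offsets and the library total together it was 0.39 and missed the threshold (adjusted p = 0.0543). Its paralog Kif21a, of the same kinesin-4 family, held 292, 266, 269.7, 276 and 271.7 CPM in the KO libraries, and 255 to 290.7 CPM in WT with a median of 279. The groups overlapped, and the log2 fold change was -0.0087 ± 0.040 (adjusted p = 0.889; 0.089 with density offsets, adjusted p = 0.0760). Kif7, a Hedgehog pathway kinesin of the cilium tip, its relative Kif27, and Kif4, a chromosome-binding kinesin, did not pass, with log2 fold changes of 0.18, 0.28 and -0.14.

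Kif21b also has annotated NMD transcripts, and the end of a reading frame of this class is shown because the knockout removes an NMD factor. GENCODE M21 gives the NMD class to at least 1 transcript of 13 of the 60 members (21.7%, against 26.5% of all tested genes). Without offsets 2 of the 13 were higher and 3 lower, and of the other 47 members 14 were higher and 10 lower. Of all tested genes 15.3% were higher and 14.4% lower. With density offsets 5 of the 13 and 6 of the 47 were higher, against 8.38% of all tested genes. Of these 5, Kif1a, Kif3a and Kifc2 were not called without offsets, at log2 fold changes of -0.13, -0.058 and -0.16. In the fits with offsets that left out 1 library, Kif1a lost its call without KO 2, KO 4 or WT 5. Dync2h1 lost it without KO 2, KO 4, WT 1, WT 2 or WT 5, and Kifc2 in each fit except the one without WT 1. Kif21b and Kif3a kept the call in each. Counts were per gene, so no NMD transcript was measured apart from the others of its gene. In Kif21b-204 an extra exon of 180 bases, at 136173472 to 136173651 on chromosome 1, brings in a stop codon 80 bases before the last exon junction. Its coding sequence has 4920 bases, against 4875 in the longest protein-coding Kif21b transcript with a RefSeq entry. The stop of Kif21b-204 thus does not shorten the reading frame. Dync2h1, the other member with NMD transcripts that was higher in both fits, has Dync2h1-203 and Dync2h1-208, with stops 1914 and 436 bases before the last junction. The last 90 coding bases of each follow, 5′ to 3′, from the GENCODE M21 transcripts of GRCm38, with the stop codon in capitals.
Kif21b-204: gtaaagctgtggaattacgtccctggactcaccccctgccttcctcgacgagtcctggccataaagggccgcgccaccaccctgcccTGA
Dync2h1-203: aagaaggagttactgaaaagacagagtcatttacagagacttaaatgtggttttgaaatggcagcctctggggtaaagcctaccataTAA
Dync2h1-208: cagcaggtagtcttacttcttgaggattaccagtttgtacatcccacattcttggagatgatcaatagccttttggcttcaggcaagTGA

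Kinesin-1 is the main motor of fast axonal transport, built from a pair of heavy chains (Kif5a, Kif5b or Kif5c) and a pair of light chains that bind cargo. Of its 7 genes 3 fell and 1 rose without density offsets, where 14.4% of all tested genes were lower and 15.3% higher. In the density range that holds the 3 lower genes, 63.4% of the tested genes were lower. With offsets none of the 7 passed, against 8.38% higher and 7.92% lower of all tested genes. Kif5a, the neuronal heavy chain whose human counterpart is mutated in hereditary spastic paraplegia, had the highest level per exonic kilobase of all members, at 112 ± 12.6 CPM per kb in KO and 143 ± 9.31 in WT (SD). As CPM, KO 1, KO 2, KO 3, KO 4 and KO 6 held 937, 741, 724, 737 and 777, and the WT libraries ran from 894 through a median of 1019 to 1073. KO 1 lay inside the WT range and the other 4 KO libraries lay below it. KO over WT gave a log2 fold change of -0.35 ± 0.07 (SE; edgeR adjusted p = 0.00207), and -0.070 with density offsets (adjusted p = 0.0713). With offsets it passed as lower when WT 2 was left out (adjusted p = 0.0345), and when KO 2 and WT 4 both were (adjusted p = 0.0435). In raw counts Kif5a averaged 0.979 times as much in KO as in WT, while the library totals averaged 1.24 times as much.

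Kif5b, the ubiquitous heavy chain, held 301.7, 274.0, 257, 275 and 280.4 CPM in KO 1, KO 2, KO 3, KO 4 and KO 6, and 294 to 346 CPM in WT with a median of 319.7. Only KO 1 reached the WT range. This made a log2 fold change of -0.20 ± 0.05 (adjusted p = 0.00739) and -0.079 with density offsets (adjusted p = 0.237). Kif5c, the third heavy chain, held 675, 523, 538, 548 and 595 CPM in the KO libraries, and 585 to 704 CPM in WT with a median of 661. KO 1 and KO 6 lay inside the WT range. Its log2 fold change of -0.18 ± 0.07 missed the threshold (edgeR adjusted p = 0.0516), and it passed without KO 1 (adjusted p = 0.00419), without WT 2 (0.0292) or without WT 4 (0.0306). It also passed as lower with DESeq2 size factors (0.0356), upper-quartile factors (0.0328), the DESeq2 Wald test (0.0165), limma-voom (0.0448) and no filter (0.0391). With density offsets it was 0.043 (adjusted p = 0.456). Klc1, the main neuronal light chain, held 301.1, 237.7, 247.7, 246.0 and 260.3 CPM in the KO libraries, and 296 to 323 CPM in WT with a median of 318. KO 1 again lay within the WT range and the others below it. The difference on the log2 scale was -0.28 ± 0.05 (adjusted p = 0.00194) and -0.047 with density offsets (adjusted p = 0.150).

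The other light chains went other ways. Klc2 held 249.9, 202.4, 223, 227 and 235 CPM in KO 1, KO 2, KO 3, KO 4 and KO 6, and 216 to 259.0 CPM in WT with a median of 255. The groups overlapped, and the log2 fold change was -0.13 ± 0.06 (SE; edgeR adjusted p = 0.0936; 0.067 with density offsets). It passed as lower without KO 1 (adjusted p = 0.0328), without WT 4 (adjusted p = 0.0133) or without both KO 2 and WT 4 (adjusted p = 0.0266). Klc4 rose, with 44.5 to 50.2 CPM in KO and 32.9 to 44.4 CPM in WT, so that the groups did not overlap. On the log2 scale KO minus WT came to 0.26 ± 0.07 (adjusted p = 0.0154), and with density offsets 0.22 (adjusted p = 0.0558), where it passed without WT 1 (adjusted p = 0.0459). Klc3 was weakly expressed, at 4.02 CPM in KO and 3.36 CPM in WT, and did not pass. Kif1bp, whose protein holds several kinesins off microtubules, fell and did not overlap between the groups. It held 161, 128, 144, 145 and 147 CPM in KO 1, KO 2, KO 3, KO 4 and KO 6, and 167 to 179 CPM in WT with a median of 170.5. The log2 fold change was -0.25 ± 0.05 (adjusted p = 0.00193) and -0.077 with density offsets (adjusted p = 0.119).

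**Figure D3:**
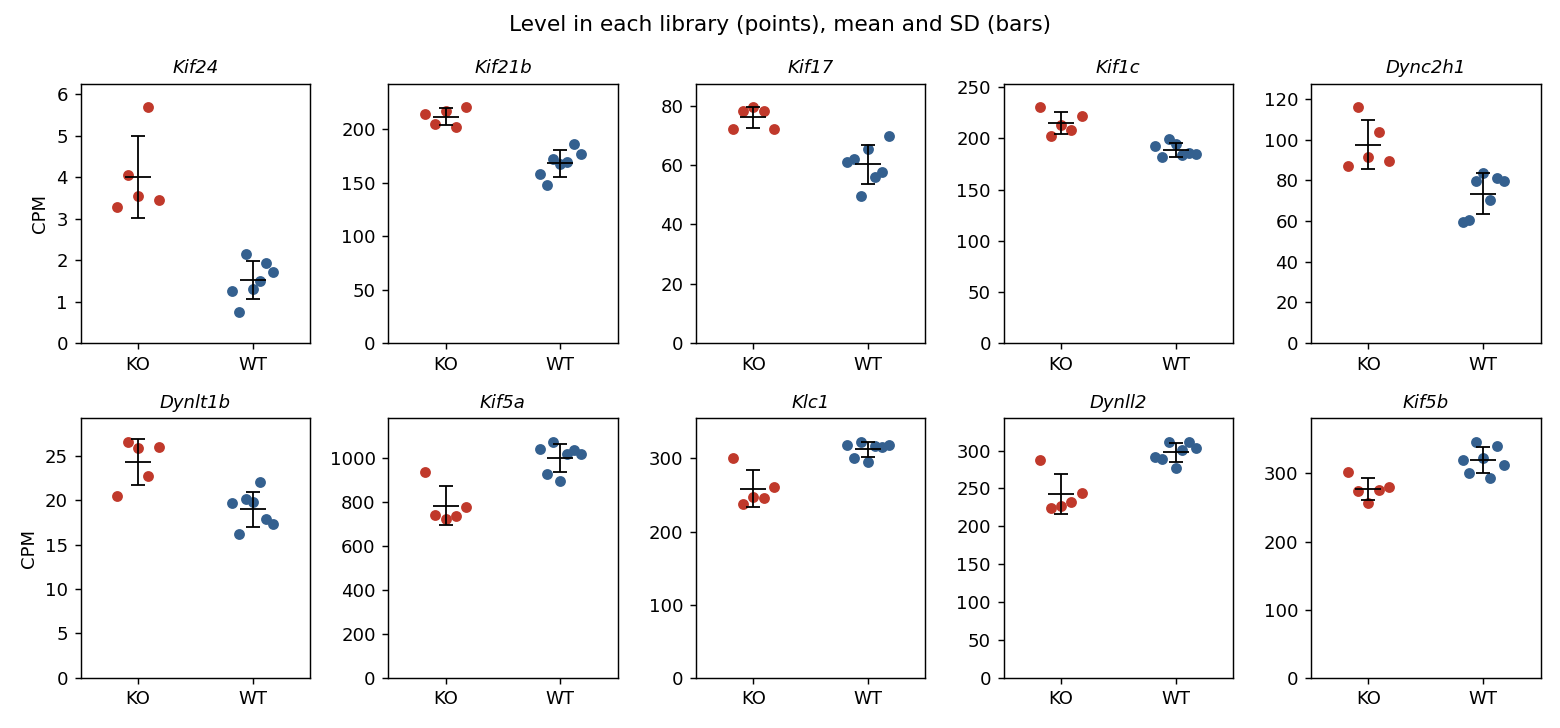
CPM in each library for 10 motor genes, with KO in red on the left of each panel and WT in blue on the right; bars show the mean and SD. In the first 6 panels KO is higher, and in the last 4 (Kif5a, Klc1, Dynll2 and Kif5b) KO 1, the highest KO point, lies inside the WT range.

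Among the kinesin-2 genes, which form the motor of anterograde transport in cilia and also carry cargo in neurons, Kif17 rose. Kif17 forms a homodimer that carries NMDA receptor vesicles in dendrites. It held 72.2, 78.4, 79.6, 78.2 and 72.3 CPM in KO 1, KO 2, KO 3, KO 4 and KO 6, and 49.4 to 69.9 CPM in WT with a median of 61.2. The groups did not overlap. KO over WT gave a log2 fold change of 0.34 ± 0.07 (SE; edgeR adjusted p = 0.00253) and 0.31 with density offsets (adjusted p = 0.00706). Kif3a, which pairs with Kif3b or Kif3c, held 247, 229, 229.5, 235 and 229 CPM in the KO libraries, and 234.5 to 259 CPM in WT with a median of 241. The groups overlapped, and the log2 fold change was -0.058 ± 0.036 (adjusted p = 0.240). With density offsets it was 0.14 and called higher (adjusted p = 0.0139), also in each such fit that left out 1 library. In the fit that held the library total Kif3a was at -0.0012 (adjusted p = 0.997). Kif3b and Kif3c did not pass in either fit, with log2 fold changes of -0.056 and -0.028 without offsets.

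The kinesin-3 family carries synaptic vesicle precursors, dense-core vesicles and endosomes, and 4 of its 6 members rose while none fell, where 15.3% of all tested genes were higher and 14.4% lower. With density offsets 2 of the 6 were higher, against 8.38% of all tested genes. Kif1c, a carrier of dense-core vesicles, held 230.5, 202.4, 213, 208.0 and 221.6 CPM in KO 1, KO 2, KO 3, KO 4 and KO 6, and 182 to 199.5 CPM in WT with a median of 186. The groups did not overlap, and KO 1 was the highest KO library. This made a log2 fold change of 0.19 ± 0.04 (SE; edgeR adjusted p = 0.00347), 0.22 with density offsets (adjusted p = 7.78e-04) and 0.26 in the fit that held the library total (adjusted p = 0.0610). With the offsets and the library total together it was 0.27, and Kif1c was then the 1 member called (adjusted p = 0.0469). Kif13a and Kif13b, which carry endosomal and scaffold cargo, rose by log2 fold changes of 0.21 (adjusted p = 0.0217) and 0.25 (adjusted p = 0.0301). Kif16b, a motor of early endosomes, rose by 0.21 (adjusted p = 0.0105). With density offsets these 3 genes missed the threshold, at 0.11, 0.14 and 0.070. Kif13a lost its call without KO 2 or KO 4 (highest adjusted p 0.0707), and Kif13b without KO 2, KO 4, WT 1, WT 2 or WT 5 (highest 0.0865).

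The long-range axonal carriers of the same family were at high levels and missed the threshold without offsets. Kif1a, the main motor for synaptic vesicle precursors, held 902, 779, 735, 768 and 768 CPM in KO 1, KO 2, KO 3, KO 4 and KO 6, and 774 to 918 CPM in WT with a median of 865. The groups overlapped through KO 1 and KO 2. The difference on the log2 scale was -0.13 ± 0.06 (SE; edgeR adjusted p = 0.117), and with density offsets it was 0.12 and called higher (adjusted p = 0.0277), a call lost without KO 2, KO 4 or WT 5. Without offsets it passed as lower when KO 1 was left out (adjusted p = 0.0111). Kif1b, which carries mitochondria and synaptic vesicle precursors, held 753, 696, 641, 707 and 676 CPM in the KO libraries, and 660 to 825 CPM in WT with a median of 765. Only KO 3 lay below the WT range. On the log2 scale KO minus WT came to -0.13 ± 0.06 (edgeR adjusted p = 0.105; -0.0073 with density offsets), and it passed as lower without KO 1 (adjusted p = 0.0397) or without WT 2 (adjusted p = 0.0268). With the DESeq2 Wald test both passed as lower, Kif1a at an adjusted p of 0.0451 and Kif1b at 0.0344.

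Kinesins of motile cilia and the atypical kinesins were weakly expressed and higher in part. Kif9, a kinesin of motile axonemes, held 13.5, 15.7, 14.8, 13.8 and 13.3 CPM in KO 1, KO 2, KO 3, KO 4 and KO 6, and 8.02 to 13.1 CPM in WT with a median of 11.1. The groups did not overlap. The log2 fold change was 0.44 ± 0.12 (SE; edgeR adjusted p = 0.0107) and 0.27 with density offsets (adjusted p = 0.120). Kif19a, which shortens motile cilia, held 7.16, 10.4, 8.72, 7.85 and 10.5 CPM in the KO libraries, and 6.04 to 8.35 CPM in WT with a median of 6.84. KO 1 and KO 4 lay inside the WT range. KO over WT gave a log2 fold change of 0.37 ± 0.13 (adjusted p = 0.0438), and the call was lost in 9 of the 12 fits that left out 1 library: each one except those without KO 1, KO 4 or WT 3 (highest adjusted p 0.117). It was also lost with the DESeq2 Wald test (adjusted p = 0.108), with DESeq2 size factors (0.0544) and with no filter (0.0531). Kif6, another ciliary kinesin, did not pass (log2 fold change 0.50, adjusted p = 0.174). A list of 4 ependymal marker genes, from the ciliated lining of the ventricles, summed to 25.7 to 55.7 CPM in KO and 19.97 to 35.7 CPM in WT. None of the 4 passed, at a median log2 fold change of 0.49 without and 0.32 with density offsets. Their part in the cilium kinesins was not tested.

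Kif26b and Kif26a are kinesin-11 proteins that have lost ATPase activity and act in signalling and adhesion. Kif26b held 19.4, 25.1, 17.3, 23.2 and 19.1 CPM in KO 1, KO 2, KO 3, KO 4 and KO 6, and 6.98 to 19.6 CPM in WT with a median of 14.8. KO 1, KO 3 and KO 6 lay inside the WT range. This made a log2 fold change of 0.64 ± 0.20 (SE; edgeR adjusted p = 0.0277) and 0.40 with density offsets (adjusted p = 0.150). The call was lost without KO 2, KO 4 or WT 1 (highest adjusted p 0.0702). Kif26a rose by 0.33 (adjusted p = 0.0245; adjusted p = 0.418 with density offsets), and lost its call without KO 1 or KO 4 (highest adjusted p 0.0709).

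Mitotic kinesins were at low levels and none passed in either fit. Kif11, which pushes spindle poles apart, held 6.14, 7.31, 6.21, 5.54 and 4.94 CPM in KO 1, KO 2, KO 3, KO 4 and KO 6, and 3.96 to 7.27 CPM in WT with a median of 5.22. The groups overlapped (log2 fold change 0.20 ± 0.16, edgeR adjusted p = 0.385; -0.051 with density offsets). Kif18a, Kif20a, Kif22 and Kif23, which act on chromosomes or in cytokinesis, had log2 fold changes of 0.10 to 0.45 without offsets. Of these, Kif22 passed as higher when WT 7 was left out. A list of 7 marker genes of dividing cells had 4 in the table, 3 of them tested. Its sum was 20.5 to 28.5 CPM in KO and 13.8 to 20.4 CPM in WT. Of the 3 tested, 2 were higher without offsets, against 15.3% of all tested genes, and none was with them. Its part in the levels of these kinesins was not tested.

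Of the kinesin-14 genes, which move towards the minus end, Kifc3 rose by 0.14 ± 0.04 on the log2 scale (SE; edgeR adjusted p = 0.0303) and by 0.15 with density offsets (adjusted p = 0.0278). It acts at cell junctions. Its call was lost when any 1 of KO 2, KO 3 and KO 4, or of WT 4, WT 6 and WT 7, was left out (highest adjusted p 0.0759), and with offsets without KO 2, KO 3 or KO 4 (highest 0.0694). Kifc2, a minus-end motor of neurons, missed the threshold at -0.16 (adjusted p = 0.0535), and with density offsets was called higher, at 0.081 (adjusted p = 0.0483). That call was lost in each such fit that left out 1 library, except the one without WT 1. Without offsets Kifc2 passed as lower when KO 1 or WT 4 was left out, and when KO 2 and WT 4 both were. It also passed as lower with DESeq2 size factors, upper-quartile factors, the DESeq2 Wald test and no filter. Kifc1, a spindle motor, and Kifc5b share 98.4% of their aligned coding bases, so the split of their counts is uncertain. Summed, they averaged 13.2 ± 2.60 CPM in KO and 11.8 ± 2.10 in WT (log2 fold change 0.17, adjusted p = 0.402).

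Cytoplasmic dynein-1 is built around the heavy chain Dync1h1, which holds the motor domain. Dync1h1 held 701, 683, 651, 692 and 684 CPM in KO 1, KO 2, KO 3, KO 4 and KO 6, and 516 to 707 CPM in WT with a median of 636. All KO values lay inside the WT range, and the WT libraries spread widely. The difference on the log2 scale was 0.12 ± 0.07 (SE; edgeR adjusted p = 0.168). With density offsets it was 0.23 and called higher (adjusted p = 0.0288), a call lost without KO 2, KO 4, KO 6 or WT 1. The intermediate chains Dync1i1 and Dync1i2 link the motor to dynactin. Dync1i1, the neuronal one, held 134, 123, 131, 132 and 127 CPM in the KO libraries, and 127 to 146 CPM in WT with a median of 137. The groups overlapped (log2 fold change -0.079 ± 0.041, edgeR adjusted p = 0.161; 0.042 with density offsets). Dync1i2 fell by 0.15 on the log2 scale (adjusted p = 0.0171; -0.038 with density offsets), and lost its call without KO 4 (adjusted p = 0.0545).

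The light intermediate chains bind cargo adaptors. Dync1li1 held 79.2, 74.2, 73.9, 74.9 and 78.0 CPM in KO 1, KO 2, KO 3, KO 4 and KO 6, and 77.4 to 88.5 CPM in WT with a median of 83.9. KO 1 and KO 6 lay inside the WT range. It fell by 0.13 on the log2 scale (SE 0.04; edgeR adjusted p = 0.0224), with -0.091 under density offsets (adjusted p = 0.0932), and lost its call without KO 2, KO 3 or KO 4 (highest adjusted p 0.0608). Dync1li2 did not pass, at a log2 fold change of -0.089 (adjusted p = 0.106). It passed as lower without KO 1, without WT 2 and with the DESeq2 Wald test.

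Dynein-2 is the retrograde motor of cilia. Its heavy chain Dync2h1, on chromosome 9 at 6928503 to 7184446 (mm10, minus strand), rose. It held 86.9, 116, 91.4, 104 and 89.6 CPM in KO 1, KO 2, KO 3, KO 4 and KO 6, and 59.3 to 83.8 CPM in WT with a median of 79.6. The groups did not overlap. On the log2 scale KO minus WT came to 0.41 ± 0.09 (SE; edgeR adjusted p = 0.00512) and 0.27 with density offsets (adjusted p = 0.0349). With offsets the call was lost without KO 2, KO 4, WT 1, WT 2 or WT 5 (highest adjusted p 0.0887). Its light intermediate chain Dync2li1 averaged 26.1 ± 1.98 CPM in KO and 25.7 ± 3.02 in WT and did not pass (adjusted p = 0.859).

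Dynein light chains, small dimeric subunits that are also found in other complexes, went both ways. Dynll2 held 287, 224, 227, 232 and 245 CPM in KO 1, KO 2, KO 3, KO 4 and KO 6, and 278 to 311 CPM in WT with a median of 301.0. Only KO 1 reached the WT range. The log2 fold change was -0.30 ± 0.06 (SE; edgeR adjusted p = 0.00210) and -0.054 with density offsets (adjusted p = 0.161). Its paralog Dynll1 held 94.7, 78.2, 83.7, 83.8 and 81.8 CPM in the KO libraries, and 88.3 to 99.6 CPM in WT with a median of 94.3. Again only KO 1 reached the WT range. Dynll1 fell by 0.15 on the log2 scale (adjusted p = 0.0306; -0.048 with density offsets). That call was lost in 8 of the 12 fits that left out 1 library: without KO 2, KO 3, KO 4, KO 6, WT 1, WT 2, WT 3 or WT 5 (highest adjusted p 0.0779).

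Dynlrb1, a roadblock-type light chain, held 58.3, 48.8, 52.1, 48.8 and 52.4 CPM in KO 1, KO 2, KO 3, KO 4 and KO 6, and 57.8 to 68.1 CPM in WT with a median of 63.3. Only KO 1 reached the WT range. KO over WT gave a log2 fold change of -0.28 ± 0.06 (SE; edgeR adjusted p = 0.00272), and at -0.12 with density offsets it narrowly missed the threshold (adjusted p = 0.0575). It passed with offsets when WT 4 or WT 7 was left out (adjusted p = 0.0472 and 0.0340). Dynlt3, an X-linked Tctex-type light chain, held 137, 120, 122, 125 and 120 CPM in the KO libraries, and 138 to 150.1 CPM in WT with a median of 140. The groups did not overlap, though KO 1 came close. This made a log2 fold change of -0.20 ± 0.04 (adjusted p = 0.00295) and -0.035 with density offsets (adjusted p = 0.486). Dynlrb2, the roadblock chain of ciliated cells, was near the limit of counting, at 2.08 CPM in KO and 2.19 CPM in WT.

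Dynlt1b rose, and it belongs to a group of near-identical genes, so the sequences are shown to mark how little tells them apart. On chromosome 17 (GRCm38), Dynlt1a lies at 6306340 to 6317500, Dynlt1b at 6430112 to 6436296 and Dynlt1f at 6646602 to 6655900. Their coding sequences of 342 bases differ at 1 position, where Dynlt1a and Dynlt1f are alike. The first 120 coding bases follow, 5′ to 3′ on the coding strand, from the GENCODE M21 transcripts of GRCm38, with the differing base in capitals.
Dynlt1a: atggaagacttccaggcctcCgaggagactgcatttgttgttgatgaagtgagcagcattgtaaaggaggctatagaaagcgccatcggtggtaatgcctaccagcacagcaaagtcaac
Dynlt1b: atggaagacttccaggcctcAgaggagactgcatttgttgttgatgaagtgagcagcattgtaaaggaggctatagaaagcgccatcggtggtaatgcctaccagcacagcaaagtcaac
Dynlt1f: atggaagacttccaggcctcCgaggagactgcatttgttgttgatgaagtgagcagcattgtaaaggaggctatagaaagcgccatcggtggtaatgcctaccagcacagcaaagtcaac

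The whole transcripts of Dynlt1b and Dynlt1f, 771 bases each, differ at 7 positions. The sources used here do not say how the authors' counting treated reads that fit more than 1 of these genes. Dynlt1b held 20.4, 26.6, 25.9, 22.8 and 26.0 CPM in KO 1, KO 2, KO 3, KO 4 and KO 6, and 16.2 to 22.0 CPM in WT with a median of 19.8. KO 1 lay inside the WT range. The difference on the log2 scale was 0.36 ± 0.09 (SE; edgeR adjusted p = 0.00778) and 0.39 with density offsets (adjusted p = 0.0116). Dynlt1a rose by 0.24 (adjusted p = 0.0289; adjusted p = 0.231 with density offsets), and lost its call without KO 2, KO 3, KO 6, WT 1 or WT 2 (highest 0.0850). Dynlt1f did not pass, at 0.082 (adjusted p = 0.600). The split between the 3 genes is uncertain, so their counts were also summed, a choice made after seeing the data. The sum was 60.1 to 79.7 CPM in KO and 53.2 to 63.8 CPM in WT, with a log2 fold change of 0.25 ± 0.07 (adjusted p = 0.0115) and 0.21 with density offsets (adjusted p = 0.0385).

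Dynactin tethers dynein to cargo and microtubules. Dctn1, the large arm subunit that binds microtubules, held 327, 303.2, 294, 294 and 296 CPM in KO 1, KO 2, KO 3, KO 4 and KO 6, and 321 to 360.2 CPM in WT with a median of 335. KO 1 lay inside the WT range and the others below it. On the log2 scale KO minus WT came to -0.15 ± 0.04 (SE; edgeR adjusted p = 0.0146) and 0.041 with density offsets (adjusted p = 0.399). Dctn2, the shoulder subunit dynamitin, held 168, 134, 143, 142 and 150.3 CPM in the KO libraries, and 144 to 178 CPM in WT with a median of 169. KO 1 and KO 6 lay inside the WT range. Its log2 fold change of -0.18 ± 0.06 (adjusted p = 0.0288) became 0.044 with density offsets, and the call was lost without KO 2, KO 3, KO 4, WT 1 or WT 5 (highest adjusted p 0.0748). Dctn3, another shoulder subunit, held 63.4, 51.8, 55.3, 52.2 and 55.5 CPM in the KO libraries, and 58.8 to 67.0 CPM in WT with a median of 64.9. Only KO 1 reached the WT range. The log2 fold change was -0.20 ± 0.06 (adjusted p = 0.0174) and -0.035 with density offsets, and the call was lost without KO 4 (adjusted p = 0.0544). Dctn4, Dctn5 and Dctn6 had log2 fold changes of -0.049, -0.053 and -0.098 and did not pass, though Dctn6 passed as lower without WT 4.

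**Figure D4:**
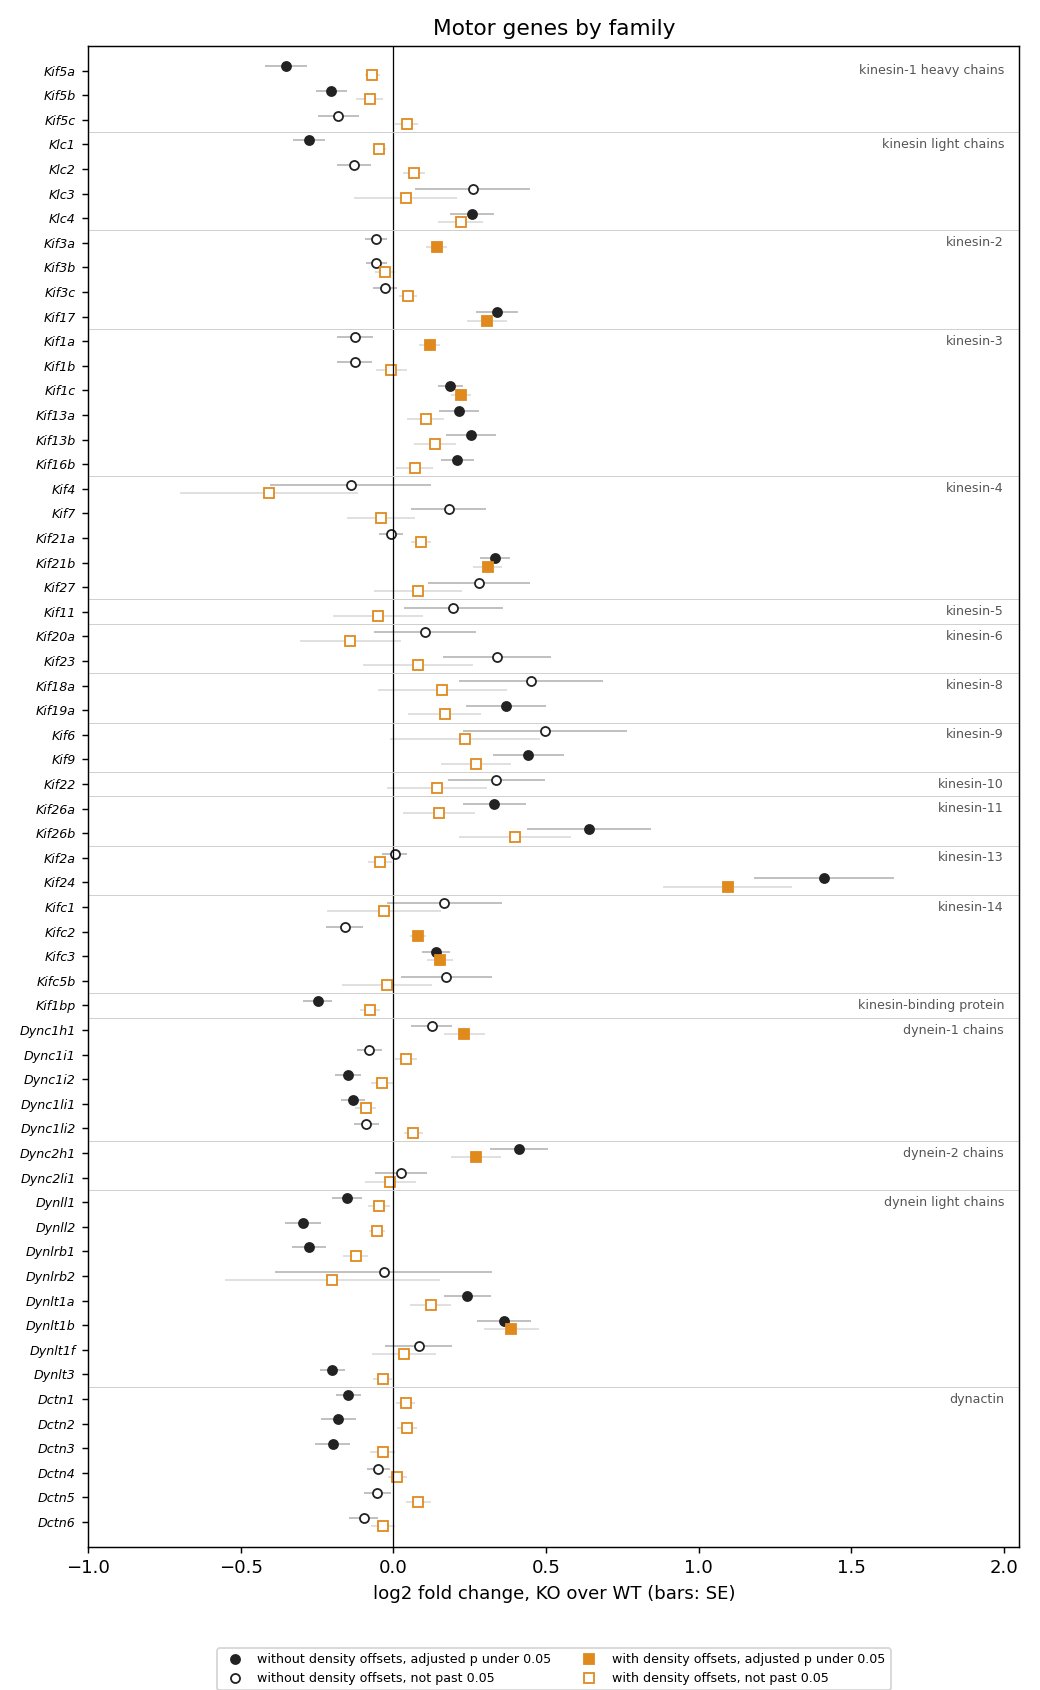
Log2 fold change (KO over WT) with its SE for the 60 motor genes, grouped by family, without density offsets (circles) and with them (squares). Filled symbols passed an adjusted p of 0.05: 16 higher and 13 lower without offsets, and 11 higher and none lower with them.

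Partner genes of the motors, taken from lists made with earlier results of these data known, were counted the same way. The shares over all tested genes were 15.3% higher and 14.4% lower, and 8.38% and 7.92% with density offsets. Of 18 tested dynein cofactors and adaptors 4 rose and 2 fell, and 2 rose and none fell with density offsets. Nin, a centrosomal adaptor of dynein, averaged 172 CPM in KO and 109 CPM in WT (log2 fold change 0.66 ± 0.07 SE, edgeR adjusted p = 3.7e-05; 0.57 with density offsets). Ccdc64, a Bicaudal-D-related adaptor, was at 72.5 CPM in KO and 53.1 CPM in WT (0.45 ± 0.07; 0.42 with offsets). Pafah1b1, which encodes LIS1, and Nudc fell by 0.18 and 0.22 on the log2 scale and were at -0.0018 and -0.025 with offsets.

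Of the 6 dynactin subunits with other symbols 4 fell and none rose. The capping protein genes Capza2 and Capzb fell by 0.30 and 0.22 on the log2 scale, and Actr1a and Actr10, of the actin-related filament, by 0.12 and 0.14. With density offsets Capza2 alone of the 6 was lower, at -0.14 (edgeR adjusted p = 0.00922). Of 22 tested kinesin partners and cargo adaptors 1 rose and 6 fell, and with offsets 6 rose and 3 fell. The 6 that rose with offsets were the cargo adaptors and regulators Madd (0.18), Mapk8ip3 (0.16), Trak1 (0.13), Clstn3 (0.12), Plekhm2 (0.16) and Rhot2 (0.17), and without offsets they had log2 fold changes of -0.099 to 0.11 and did not pass. The 3 that fell with offsets were Arl8b, Fez2 (-0.23) and Rhot1 (-0.13). Without offsets Rhot1 fell too (-0.14), and Fez2 missed the threshold (-0.15, edgeR adjusted p = 0.0502). The 6 that rose, Fez2 and Rhot1 were named after their values were seen. Kifap3, the cargo-binding subunit of kinesin-2, fell by 0.19 on the log2 scale and was at -0.020 with offsets. Arl8b, which couples lysosomes to kinesin-1, fell in both fits, by 0.23 and 0.13 on the log2 scale. Clstn1 and Fez1, kinesin-1 cargo adaptors, fell by 0.28 and 0.20 on the log2 scale, and were at -0.011 and 0.028 with offsets. Of 22 genes of dynein-2 and intraflagellar transport 4 rose and none fell, and with offsets 1 rose. That one was Ift172, at 0.20 ± 0.04 (adjusted p = 0.00377) and 0.16 with offsets (adjusted p = 0.0142). Wdr19, Wdr60 and Ift140 rose by 0.29, 0.30 and 0.22, and missed the threshold with offsets.

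Markers of the cells that could carry these changes moved as follows. Shares over all tested genes were 15.3% higher and 14.4% lower, and 8.38% and 7.92% with offsets. All 7 neuron markers were counted in this cortex tissue, with a sum of 1923 to 2342 CPM in KO and 2236 to 2479 CPM in WT. Without offsets 6 of the 7 fell (median log2 fold change -0.22), and with offsets none passed (median 0.0084). Of 6 oligodendrocyte markers 3 fell, of 5 astrocyte markers 2 fell and of 5 microglia markers 3 fell, while 2 of 4 endothelial markers rose. With offsets 1 astrocyte and 2 microglia markers were lower and no marker was higher. The sums of the microglia markers were 342 to 372 CPM in KO and 372 to 465 CPM in WT. The part of cell makeup in the motor gene changes was not tested.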

How the data were processed

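RNA from 12 frontal cortices was sequenced, and the authors deposited 1 table of raw read counts per gene and library, which are whole numbers. Per the submitters' processing notes, STAR and the mm10 build were used. The sources used here do not name the counter, the strand setting or the treatment of duplicates and of reads that fit several genes. All deposited columns were matched to sample titles.

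Counts were scaled by TMM and tested with edgeR 4.0.16 (R 4.3.3), quasi-likelihood, group as the only term, after filterByExpr, with Benjamini-Hochberg adjustment at 0.05 over 14274 genes. CPM were computed from the deposited counts. Density offsets removed, in each library, a lowess trend (span 0.3) of log2 counts against counts per exonic base, with lengths from GENCODE M21, found for 14110 tested genes. DESeq2 1.42.0 and limma 3.58.1 were alternatives. Procedures were run on simulated data with known fold changes in genes picked at random. No simulated fold change followed density, so these runs do not show how the offsets treat such a change. The biological coefficient of variation was 8.11%.

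The members and gene lists were chosen with earlier results of these data known. Members given by library are the up to 8 passing members with the largest fold change in each direction, with a mean log2 CPM no lower than 1, and a list of core subunits. Other passing members are named with their fold change. Kif1c, Kifc2, the sums of near-identical genes and the kinesin partners named for their calls with offsets were singled out after their values were seen. The closest pair, WT 6 and WT 7, had a chi-square of counts per degree of freedom of 1.02, against 1.18 for the next, and both were kept. KO 2 and WT 4, which an earlier analysis of these data had doubted, were left out together as an alternative. Library totals of 4684039 to 6617759 set the precision, and Kif24 rests on 4 to 37 counts a library. Antisense and overlapping genes cannot be told apart where strand was not used.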

Additional observations from a re-analysis of the deposited data

Results flagged for a closer look

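Of the 120 groups (KO and WT of 60 motor genes), 8 held a library far from the others of its group, by the gap to the nearest library over the whole range; chance flags about 1 in 20 groups. Dync1li2 was at 284.7 CPM in KO 1 and at 255 to 259 CPM in the other KO libraries. Kif5a was at 937 CPM in KO 1 and at 724 to 777 CPM in the other KO libraries. Kif1a was at 902 CPM in KO 1 and at 735 to 779 CPM in the others. Dctn1 was at 327 CPM in KO 1 and at 294 to 303.2 CPM in the others. Among WT libraries, Klc2 was at 216 CPM in WT 4 and at 242 to 259.0 CPM in the others, and Dctn2 was at 144 CPM in WT 4 and at 165 to 178 CPM in the others. Kifc2 was at 294 CPM in WT 4 and at 329 to 353 CPM in the others, and Dctn6 was at 54.9 CPM in WT 4 and at 59.3 to 61.3 CPM in the others. KO 1 had the smallest total of the KO libraries, 4990643 counts, and WT 4 the largest of the WT libraries, 5425774 counts. The part of depth in these values was not tested apart from the fits with the library total.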

How the results depend on the processing

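Without offsets 16 members were higher and 13 lower. These counts were 13 and 18 with the DESeq2 Wald test, 14 and 15 with DESeq2 size factors, 15 and 15 with upper-quartile factors, 16 and 14 with limma-voom, 14 and 15 with no filter, 16 and 13 with a filter of 1 CPM in 5 libraries, 11 and 15 without KO 2 and WT 4, and 15 and 13 with near-identical genes summed, a setting added after seeing the data. They were 6 and 7 at a threshold of 0.01, 11 and 0 with density offsets, and 1 and 0 when the library total was a covariate. Leaving out 1 library gave 10 to 16 higher and 8 to 19 lower members. Of the 29 calls 17 were kept in all 12 such fits. Over all genes, 2183 were higher and 2050 lower, against 1196 and 1130 with density offsets, 84 and 11 with the covariate, 1006 and 1145 at 0.01, and 1585 to 2420 and 1544 to 2467 when 1 library was left out. With density offsets, leaving out 1 library gave 6 to 10 higher and 0 to 1 lower members, leaving out KO 2 and WT 4 gave 8 and 1, and adding the covariate gave 1 (Kif1c) and 0, with Kif21b at an edgeR adjusted p of 0.0543; these were added after seeing the data.

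Mouse numbers are shared between the groups, and the sample titles do not say whether they pair the mice. Deviations of same-numbered libraries had correlations of 0.14, -0.38, -0.050, -0.070 and 0.040 for numbers 1, 2, 3, 4 and 6. A shared factor with a small effect could leave such values, so they do not settle whether the mice were paired. With the number as a replicate block, 6 members were higher and 7 lower, and 1129 and 1186 of all genes; under it Kif2a was at -0.021 and Kif21a at 0.0061.

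The sign of the log2 fold change differed from that without offsets in 20 of the 60 members with density offsets and in 19 with the covariate, and the cause was not tested. Among the members given by library, with density offsets Kif2a was at -0.044, Kif11 at -0.051, Dctn1 at 0.041, Dync1i1 at 0.042, Kif5c at 0.043, Dctn2 at 0.044, Klc2 at 0.067, Kif21a at 0.089, Kif1a at 0.12 and Kif3a at 0.14. With the covariate Kif2a was at -0.00075, Kif1b at 0.0047, Dctn2 at 0.049, Klc2 at 0.053, Kif5c at 0.077, Kif21a at 0.089 and Kif1a at 0.094. Kif2a, at 0.0034 without either, was at -0.015 with DESeq2 size factors, -0.0035 with upper-quartile factors, -0.018 with the DESeq2 Wald test, -0.012 with no filter, -0.0022 without KO 2 and WT 4, and -0.015 to 0.022 when 1 library was left out. Kif21a, at -0.0087, ran from -0.031 to 0.0033 when 1 library was left out.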
